A study of Mus musculus with 6 samples.

Results

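The genes described here are 9 transcription factors that direct the formation of skeletal muscle: the myogenic regulatory factors Myod1, Myog, Myf5 and Myf6, the paired-box factors Pax3 and Pax7, and the MEF2 factors Mef2a, Mef2c and Mef2d. They were taken by symbol from the 19505 genes measured on 6 Affymetrix arrays, and all 9 were found, each with 1 probe set. The arrays came from cultured mouse Rras2(Q72L) fibrosarcoma cells of strain C57BL/6, a malignant tumor of fibroblast-like cells. Rras2 encodes a small GTPase related to the RAS proteins, and both groups carry its Q72L allele. The 3 control arrays (pLKO, replicates 1 to 3) came from cells transduced with the empty lentiviral vector, and the 3 knockdown arrays (shRras2, replicates 4 to 6) from cells transduced with a vector for an Rras2-directed shRNA, sh#89. A single shRNA and a single tumor line were used, and the sources used here do not say whether that line is 1 clone. Separate cultures per array are not mentioned in the labels either, and the p-values then reflect only how far these 6 samples spread, possibly for technical reasons. Group and replicate number run together, and a batch that follows the numbers cannot be told apart from the knockdown.

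Skeletal muscle cells arise from precursors marked by Pax3 and Pax7. Myf5 and Myod1 commit them to the lineage, and Myog, with Myf6, drives the later step in which myoblasts leave the cell cycle, fuse and build the contractile apparatus. These 4 factors are basic helix-loop-helix proteins that pair with E proteins and bind the E-box, a short DNA motif. MEF2 factors bind an AT-rich motif beside many E-boxes and act together with them, and MYOD1 and MYOG in turn raise Mef2c. RAS signalling is known to hold back this program in cultured myoblasts. In bulk RNA, fewer cells expressing a gene and less RNA per cell cannot be told apart.

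Mef2c and Myog rose in the knockdown, and their promoters are shown because of that. The sequences are those of RefSeq on GRCm38.p6, from 250 bases before to 50 bases after each annotated start. The table held 6 of the 9 genes in 8 windows, since it lists 3 starts for Mef2c; Myod1, Myf6 and Pax3 had no entry. All windows are printed 5′ to 3′ with 3 motifs in capitals wherever they occur on either strand: the E-box CANNTG, the core CTANNNNTA of the MEF2 motif, and TCAGGTT, the MEF3 motif bound by sine oculis homeobox factors such as Six4.
Myog, chr1:134289754-134290053, + strand: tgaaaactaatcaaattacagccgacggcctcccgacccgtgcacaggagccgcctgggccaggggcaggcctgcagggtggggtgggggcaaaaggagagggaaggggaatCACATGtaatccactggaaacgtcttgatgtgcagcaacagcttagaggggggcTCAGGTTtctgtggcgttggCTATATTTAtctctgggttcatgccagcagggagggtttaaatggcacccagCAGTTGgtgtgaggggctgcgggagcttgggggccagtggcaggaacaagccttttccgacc
Mef2c, start 1, chr13:83503784-83504083, + strand: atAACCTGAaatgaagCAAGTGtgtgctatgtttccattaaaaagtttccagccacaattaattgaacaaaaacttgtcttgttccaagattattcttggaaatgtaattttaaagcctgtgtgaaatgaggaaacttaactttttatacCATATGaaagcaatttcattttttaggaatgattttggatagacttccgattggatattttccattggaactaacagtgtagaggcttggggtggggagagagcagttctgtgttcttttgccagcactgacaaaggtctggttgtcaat
Mef2c, start 2, chr13:83523406-83523705, + strand: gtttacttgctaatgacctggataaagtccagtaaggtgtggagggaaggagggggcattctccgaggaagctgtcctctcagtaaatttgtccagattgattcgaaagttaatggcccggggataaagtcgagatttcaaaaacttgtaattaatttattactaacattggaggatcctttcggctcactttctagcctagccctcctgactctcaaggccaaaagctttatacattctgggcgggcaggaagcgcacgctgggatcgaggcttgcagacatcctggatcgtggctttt
Mef2c, start 3, chr13:83573357-83573656, + strand: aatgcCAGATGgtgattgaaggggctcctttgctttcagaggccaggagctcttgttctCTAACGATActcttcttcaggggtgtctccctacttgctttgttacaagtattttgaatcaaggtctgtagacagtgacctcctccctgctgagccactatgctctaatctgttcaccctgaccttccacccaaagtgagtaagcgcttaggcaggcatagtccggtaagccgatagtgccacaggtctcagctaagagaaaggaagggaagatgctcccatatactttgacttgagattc

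The Myog window held all 3 motifs, with the E-boxes CACATG at -138 and CAGTTG at -12, TCAGGTT at -84 and the MEF2 core CTATATTTA at -64, counted from the annotated start to the first base of the motif. The myogenin promoter is a classical example of a gene read by MEF2 and sine oculis homeobox factors. The window at start 1 of Mef2c held 2 E-boxes and 1 MEF3 motif, the latter on the minus strand, the window at start 2 held none of the 3 motifs, and that at start 3 held 1 E-box and 1 MEF2 core. The single Mef2c probe set does not tell transcripts of these starts apart. The windows of Myf5 and Mef2a each held 1 stretch that reads as the MEF2 core on both strands and so counts as 2 overlapping matches, CTAGGTTTA and CTAAAAATA on the plus strand, and neither held an E-box. The windows of Pax7 and Mef2d held none of the 3. In none of the 8 windows did 2 different motifs overlap. Of 32841 promoter windows of 300 bases, 72.3% held an E-box, 21% a MEF2 core and 4.07% a MEF3 motif. A match describes letters and does not show binding.

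Rras2, the target of the shRNA, was 10.67, 10.75 and 10.82 on the log2 RMA scale in the controls and 9.09, 9.69 and 9.21 on knockdown replicates 4, 5 and 6. The knockdown arrays thus kept 31.8%, 48.1% and 34.6% of the control mean, with the most on replicate 5. Over all genes, 5.21% passed the threshold of 0.05 on limma's Benjamini-Hochberg adjusted p, 2.99% higher and 2.22% lower in the knockdown; with each array centred on its median the split was 506 higher and 567 lower in place of 584 and 433. Of the 9 regulators 2 rose, 0 fell and 7 did not pass. At an unadjusted p under 0.05 in limma 3 were higher and 1 lower, where 19.1% of all genes passed, 9.11% higher and 10.0% lower; the unadjusted counts given for lists further on are to be read against these shares. Their median log2 difference was 0.11, against -0.01 over all genes, and they ran from -0.38 to 1.52. The values come without detection calls, so each array's 5222 negative-control probe sets served as a background: their 95th percentile lay between 7.85 and 7.97 on the 6 arrays.

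**Figure D1:**
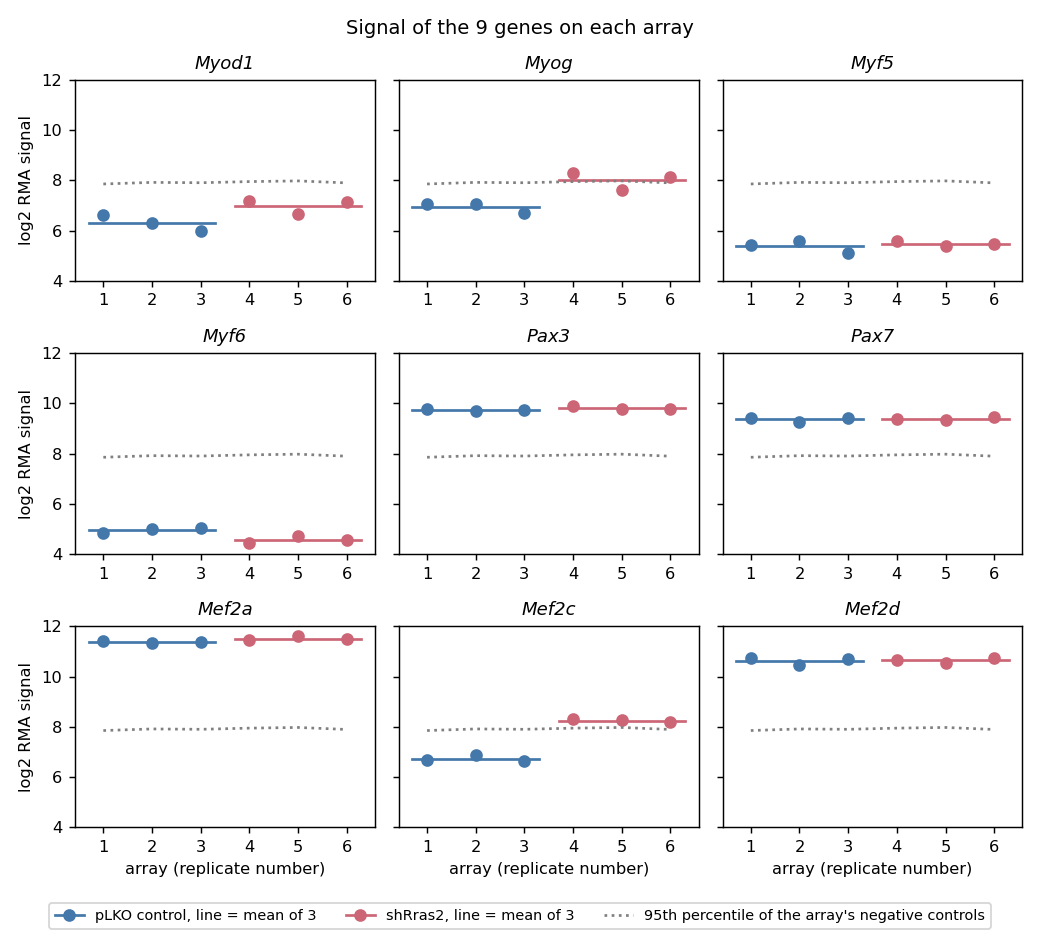
Log2 RMA signal (y axis) of the 9 regulators on each of the 6 arrays (x axis, replicate number); blue points are pLKO and red points shRras2 arrays, short lines the means of 3, and the dotted line the 95th percentile of each array's negative controls. Mef2c crosses the dotted line from 0 of 3 control arrays above it to 3 of 3 knockdown arrays, Myog to 2 of 3, while Pax3, Pax7, Mef2a and Mef2d lie above it on all 6 arrays.

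Among the myogenic regulatory factors, Myog, which drives terminal differentiation, was the one that passed the threshold, higher in the knockdown. Its log2 signal was 7.05, 7.06 and 6.70 in the controls and 8.28, 7.59 and 8.15 on knockdown replicates 4, 5 and 6. The groups did not overlap, as was so for 25.5% of all genes, and replicate 5 lay lowest of the knockdown arrays. The means were 6.93 ± 0.20 and 8.01 ± 0.36 (SD, n = 3 each), a log2 difference of 1.07 ± 0.18 (SE; 95% interval 0.67 to 1.47; limma adjusted p = 0.0111). Of all 19505 genes, Myog had the 106th highest difference. It passed in 5 of the 6 fits that left out 1 array, and had a limma adjusted p of 0.0534 without knockdown replicate 6.

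The size of that rise is imprecise, because no control array lay above its negative-control percentile and knockdown replicates 4 and 6 did. Set against that percentile in the controls instead of the measured control mean, the knockdown mean of Myog was 1.09-fold higher. This is not a lower bound, because knockdown replicate 5 lay below its own percentile.

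Myod1, the lineage-determining factor, was 6.64, 6.31 and 6.00 in the controls and 7.17, 6.65 and 7.14 on replicates 4, 5 and 6. The groups were separated by 0.02, between control replicate 1 and knockdown replicate 5. Its log2 difference of 0.68 ± 0.18 (SE; 95% interval 0.26 to 1.09) did not pass (limma adjusted p = 0.0743). Without knockdown replicate 5 it was 0.84 and passed (limma adjusted p = 0.0293), and it did not pass in the other 5 such fits. All 6 arrays lay below the negative-control percentile.

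Myf5, the early determination factor, was 5.41, 5.58 and 5.12 in the controls and 5.60, 5.38 and 5.45 in the knockdown, with overlapping groups. Its log2 difference was 0.11, with a 95% interval from -0.17 to 0.38. Myf6, also called MRF4, was 4.84, 4.98 and 5.05 in the controls and 4.44, 4.71 and 4.57 in the knockdown. It was the only one of the 9 whose knockdown arrays all lay below the controls, as was so for 13.9% of all genes, with a log2 difference of -0.38 ± 0.10 (SE; limma adjusted p = 0.0601). It passed without knockdown replicate 5 (limma adjusted p = 0.0405) and with each array centred on its median (limma adjusted p = 0.0479). Both genes lay within the bulk of the negative controls: 60.2% of these probe sets had a control mean below that of Myf5 and 49.2% one below that of Myf6. At such signals a difference in transcript level is not measured well in either direction.

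Mef2c, the MEF2 gene most tied to muscle differentiation, had the largest difference of the 9. It was 6.68, 6.86 and 6.63 in the controls and 8.29, 8.26 and 8.19 on replicates 4, 5 and 6. The gap between the groups was 1.32, larger than the range within either group (0.24 in the controls and 0.11 in the knockdown). The means were 6.72 ± 0.12 and 8.25 ± 0.05 (SD, n = 3 each), a log2 difference of 1.52 ± 0.09 (SE; 95% interval 1.32 to 1.72; limma adjusted p = 0.000141). That is the 44th highest difference of the 19505 genes, and it passed in all 6 fits without 1 array. Since 0 of 3 control arrays and 3 of 3 knockdown arrays exceeded the negative-control percentile, the size depends on how background was removed; against that percentile in the controls the knockdown mean was at least 1.28-fold higher.

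The other 2 MEF2 genes were well above background throughout and did not pass. Mef2a, expressed in many tissues, was 11.43, 11.33 and 11.37 in the controls and 11.44, 11.60 and 11.50 in the knockdown. Its groups were separated by 0.01, and its log2 difference was 0.13 (95% interval -0.05 to 0.31; limma adjusted p = 0.413). Mef2d, likewise broadly expressed, was 10.72, 10.48 and 10.71 in the controls and 10.65, 10.56 and 10.73 in the knockdown. Its groups overlapped, and its log2 difference was 0.00 with a 95% interval from -0.21 to 0.22. The intervals of both genes exclude a change as large as that measured for Mef2c.

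The log2 signal of Mef2c relative to that of Mef2a and of Mef2d within an array was compared after the values were seen. It was higher on all 3 knockdown arrays than on all 3 controls for both (exact two-sided permutation p = 0.1, the smallest possible with 3 arrays against 3, and 0.1 when adjusted over the 2).

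The paired-box genes of muscle precursors were present at signals far above background and did not pass. Pax3 was 9.77, 9.71 and 9.75 in the controls and 9.90, 9.76 and 9.77 in the knockdown. Its groups overlapped, with a log2 difference of 0.06 (95% interval -0.11 to 0.24; limma adjusted p = 0.728). Pax7, the marker of satellite cells, was 9.41, 9.27 and 9.42 in the controls and 9.36, 9.35 and 9.44 in the knockdown. Its difference was 0.01 (95% interval -0.17 to 0.20; limma adjusted p = 0.953). On a linear scale these intervals run from 0.924-fold to 1.18-fold for Pax3 and from 0.891-fold to 1.15-fold for Pax7. Of the negative-control probe sets, 98.9% lay below Pax3 and 98.5% below Pax7 in both groups.

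**Figure D2:**
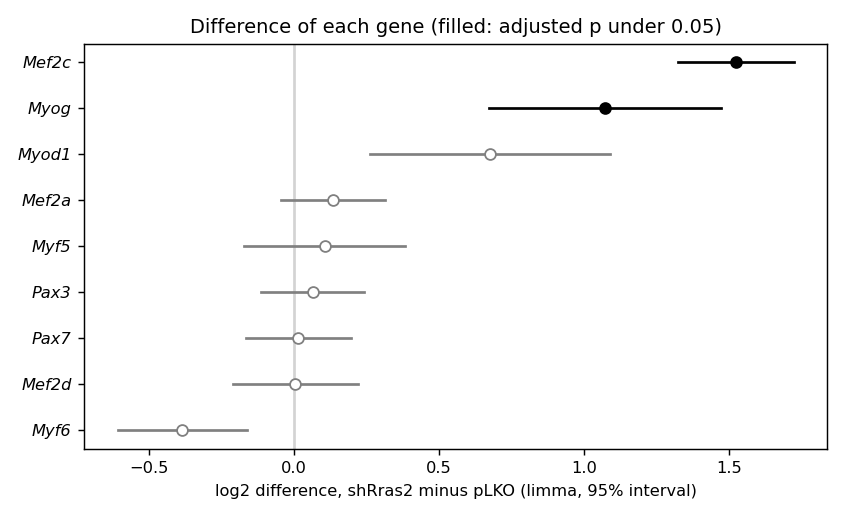
Log2 difference of each regulator, shRras2 minus pLKO (x axis), from limma with its 95% interval; filled points passed an adjusted p under 0.05. Mef2c (1.52) and Myog (1.07) stand to the right, the intervals of Myod1 and Myf6 exclude 0 without passing, and those of the other 5 include 0.

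Myog was also set against each of the other 8 regulators by the log2 difference within an array. All 8 comparisons gave an exact two-sided permutation p of 0.1, the smallest that 3 arrays against 3 can give, so none could pass. On the knockdown arrays Myog stood lower relative to Mef2c and higher relative to each of the other regulators. The sizes are not given, because the control signals of Myog, Myod1, Myf5, Myf6 and Mef2c lay at background.

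The knockdown arrays differed among themselves in some of these genes. The percentages of the control mean that follow order the arrays within a gene; for genes at background in the controls their size is imprecise. Replicate 5, which kept the most Rras2, had Myog at 158% of the control mean, against 254% on replicate 4 and 231% on replicate 6. Myod1 followed the same order, with 127% on replicate 5 and 181% and 178% on replicates 4 and 6. Myf6 ran opposite, with 84.1% on replicate 5 and 69.8% and 76.5% on the other 2. Myod1 and Myf6 lay below the negative-control percentile on every array, so for them the order is not measured well either. Mef2c did not single out replicate 5: it stood at 297%, 290% and 276% on replicates 4, 5 and 6. Whether the remaining Rras2 has a part in this was not tested.

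**Figure D3:**
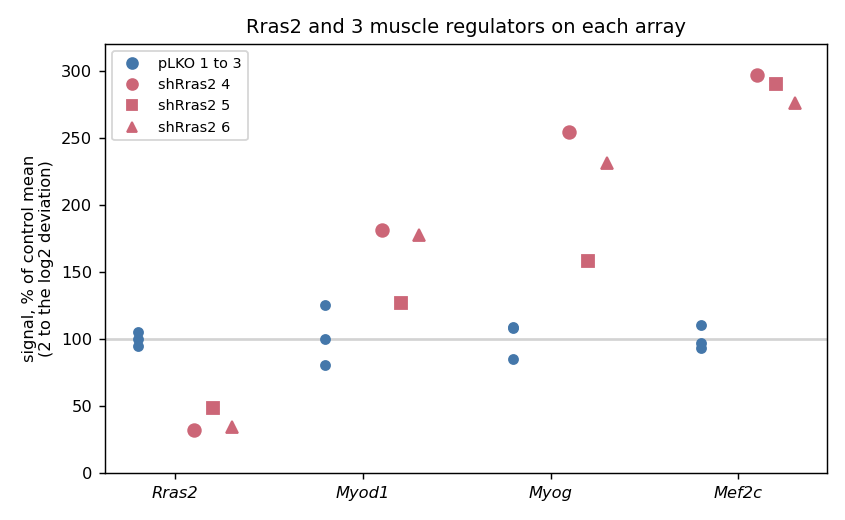
Signal of Rras2, Myod1, Myog and Mef2c on each array as a percentage of the control mean, back-transformed from log2; blue points are the 3 pLKO arrays and red symbols the 3 shRras2 arrays. Replicate 5 (square) has the most Rras2 (48.1%) and the least Myod1 and Myog of the knockdown arrays, while Mef2c lies between 276% and 297% on all 3. Myod1 lies below the negative-control percentile on every array. Myog and Mef2c lie below it on the 3 pLKO arrays, and Myog also on replicate 5. The size of their percentages is therefore imprecise.

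Genes known to work with these regulators were read from the same fit. They were grouped in 6 lists with 90 entries, of which 87 were measured. The E proteins that pair with the myogenic factors, Tcf3, Tcf4 and Tcf12, were above background. In limma 0 of 3 passed and 1 had an unadjusted p under 0.05. With eBayes fitted with a trend and robust settings, and with array weights, 1 passed. Leaving out the 30% dimmest genes, or those below the negative-control percentile, also gave 1. Tcf4 had the largest difference of the 3, from 11.91 ± 0.05 to 12.23 ± 0.11 (SD, n = 3 each; limma adjusted p = 0.0716). It passed without knockdown replicate 5. The list's median difference was 0.06.

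Of 18 genes whose products restrain the myogenic factors 2 rose and 1 fell, with a median of 0.08 (over all genes 2.99% rose and 2.22% fell). Twist2, a helix-loop-helix repressor of MYOD1, fell by 0.70 on the log2 scale (limma adjusted p = 0.00802) and passed in all 6 fits without 1 array, although both its means lay below the negative-control percentile. Id3, which sequesters E proteins, rose by 0.37 (limma adjusted p = 0.0312) and the E-box repressor gene Zeb1 by 0.44 (limma adjusted p = 0.0148). Id3 passed in 0 and Zeb1 in 2 of the 6 fits without 1 array. At an unadjusted p under 0.05 in limma 4 of the 18 were higher and 2 lower. Of these, Hey1, Bhlhe41 and Mdfic had differences of 0.52, 0.36 and -0.22 and did not pass (limma adjusted p = 0.104, 0.086 and 0.239). The control arrays of Hey1 lay below the negative-control percentile. The inhibitors Id1, Id2, Msc and Mdfi had differences of 0.10, 0.26, -0.07 and -0.05 and did not pass. Every array of Msc and Mdfi lay below that percentile.

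Of 13 measured genes that act upstream of the myogenic factors 2 rose and 0 fell, with a median of -0.03 (over all genes 2.99% rose and 2.22% fell). At an unadjusted p under 0.05 in limma 2 were higher and 2 lower. Eya4, which encodes a partner of sine oculis homeobox factors, was 7.73, 7.83 and 8.01 in the controls and 9.03, 9.13 and 9.02 in the knockdown. Replicate 5 was not set apart here, and the rise passed in all 6 fits without 1 array (limma adjusted p = 0.00044). Of the controls 1 of 3 lay above the negative-control percentile; with the other 2 raised to it, the knockdown mean was at least 2.20-fold higher. Six5 rose by 0.58 and passed in 2 of the 6, although every array of both groups lay below the negative-control percentile. The relatives Six4 and Eya1, both above background, had differences of -0.08 and 0.13 and did not pass.

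Among the partners and repressors of MEF2, 0 of 13 passed in limma, 1 had an unadjusted p under 0.05, and 1 passed with a trend and robust settings. Their differences lay between -0.21 (Carm1, a coactivator of MEF2) and 0.21 (Smarcd3, a chromatin remodelling subunit), with a median of -0.05. The class IIa histone deacetylase genes Hdac4, Hdac7 and Hdac9, whose products silence MEF2, had differences of 0.06, -0.02 and 0.03. Hdac4 lay below the negative-control percentile on every array, and Hdac5 of the same class was not measured.

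Of 12 genes tied to PAX-positive muscle precursors 1 rose and 2 fell, with a median of 0.11 (over all genes 2.99% rose and 2.22% fell). Itm2a, a PAX3 target, rose from 6.56 ± 0.20 to 7.82 ± 0.35 (SD, n = 3 each; limma adjusted p = 0.00496), both means below the percentile. Vcam1 and Sdc4, surface proteins of satellite cells that other cell types share, fell by 0.55 and 0.62 (limma adjusted p = 0.00466 and 0.00407). All 3 passed in each of the 6 fits without 1 array. The PAX3 target Met had a difference of 0.15 and the satellite cell integrin gene Itga7 one of 0.06, and neither passed. These 2 were above background, but both means of 7 of the 12 genes lay below the negative-control percentile.

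Of 28 genes that MYOD1 and MYOG are known to activate 19 rose and 0 fell, with a median of 1.23 against -0.01 over all genes; in limma 23 were higher and 0 lower at an unadjusted p under 0.05. The list overlaps muscle genes already known to rise in these arrays, so it is no independent evidence of direction. Des, the muscle intermediate filament, was 5.36, 5.52 and 5.45 in the controls and 7.39, 6.54 and 7.38 on replicates 4, 5 and 6. The acetylcholine receptor genes Chrna1 and Chrnd also rose (limma adjusted p = 0.00185 and 0.00542). Des, Chrna1 and Chrnd lay below the negative-control percentile on all 6 arrays, so no fold is given. Chrng had a log2 difference of 0.93 (limma adjusted p = 0.075) and Chrnb1 one of -0.00. The 4 largest differences were those of the myosin genes Myl1, Myh3 and Mylpf and of the fusion gene Mymk, all below the percentile on the 3 control arrays and above it on the 3 knockdown arrays. Set against that percentile, their knockdown means were at least 7.24-fold, 4.95-fold, 1.61-fold and 5.44-fold higher (limma adjusted p from 0.000223 to 0.00174). Mymx, which encodes the micropeptide partner of Mymk in fusion, was at background (6.35 ± 0.15 and 6.35 ± 0.14; SD, n = 3 each). Creatine kinase Ckm and the cadherin gene Cdh15 each had a difference of 0.15 and did not pass. Both means of 14 of the 28 genes lay below the negative-control percentile. The median of the list's deviations from the control mean was 1.37, 0.90 and 1.35 on replicates 4, 5 and 6.

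**Figure D4:**
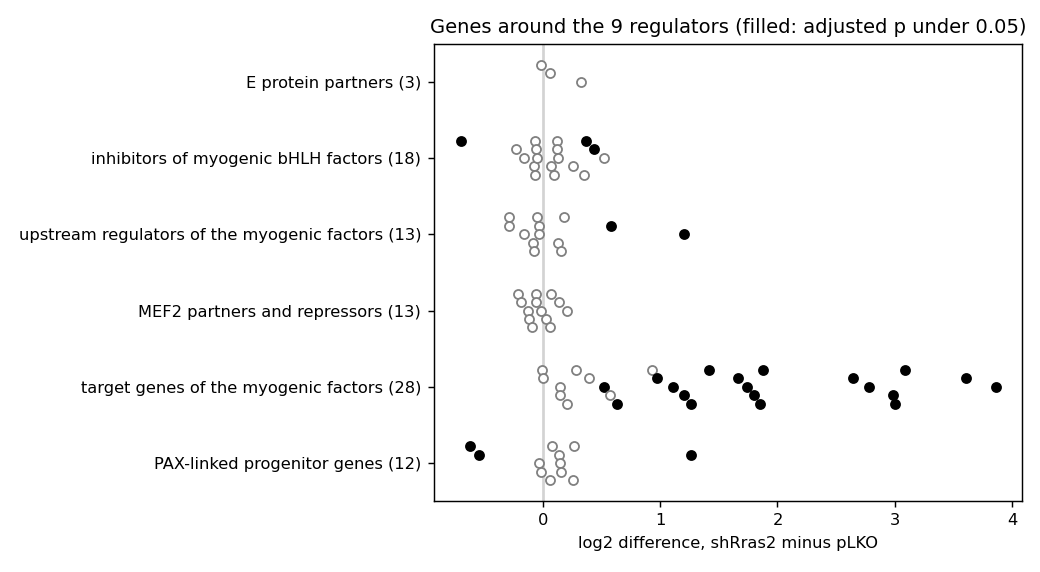
Log2 difference, shRras2 minus pLKO (x axis), of the measured genes in the 6 lists around the 9 regulators (number of genes in brackets; vertical scatter has no meaning); filled points passed limma's adjusted p under 0.05. The target genes reach 3.86 with 19 filled points, whereas the MEF2 partners lie between -0.21 and 0.21 with none filled.

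Likeness to Myog and Mef2c over the 6 arrays was read by Pearson's r on the log2 signal. It covered 8214 genes whose brighter group mean lay above the negative-control percentile, so a gene could enter through 1 group. The genes most like Myog were C1ra, Ogfr, B2m, Col6a1 and Ctsc (r from 0.998 to 0.999). Those most like Mef2c were Ctxn1, Dbp, Gas6, Chrdl1 and Plxdc2 (r from 0.995 to 0.997). With 6 arrays in 2 groups such values are common: 258 genes had an r over 0.95 with Myog and 262 with Mef2c. Within the groups, taking deviations from each group's mean, r stayed between 0.988 and 0.997 for the 5 genes like Myog, and ran from 0.389 to 0.939 for the 5 like Mef2c. The Myog-like genes therefore share its low value on replicate 5. C1ra, a complement protease gene, went from 8.09 to 9.02 and Gas6, the ligand of the TAM receptors, from 7.37 to 9.50. The control mean of Gas6 lay below the negative-control percentile, so the size of its rise is imprecise, and no bound was computed.

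Markers of other cell types were read beside these results. In the fibroblast list 3 of 7 genes, S100a4, Col3a1 and Col1a1, had a mean above the negative-control percentile, 2 rose (Col3a1 by 0.69 and Dcn by 0.76, each passing in 2 of the 6 fits without 1 array), and the summed linear signal was 4782 to 5240 in the controls and 5610 to 6989 in the knockdown. Thy1, Col1a2, Dcn and Fap were below it in both groups. The smooth muscle list had 3 of 4 genes above it, among them Acta2 at 13.81 ± 0.06 and 13.86 ± 0.05 (SD, n = 3 each), with 0 passing in limma and 2 higher at an unadjusted p under 0.05. These 2 were Tagln and Cnn1, with differences of 0.35 and 0.49 (limma adjusted p = 0.0559 and 0.146). The summed signal of the smooth muscle list was 20333 to 22433 in the controls and 22999 to 24812 in the knockdown. None of the 4 immune, 4 endothelial, 4 epithelial and 4 adipocyte markers was above the percentile, and 1 of them passed, Pparg, with a rise of 0.68. The part of the fibroblast and smooth muscle markers in the changes of Myog and Mef2c was not tested.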

How the data were processed

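Total RNA was made into biotin-labelled cRNA and hybridised to Affymetrix arrays, per the labels' protocols. Each deposited value is the log2 signal of a probe set, and the submitters' processing notes name RMA and R 3.6.3. That method subtracts background, brings the arrays to one distribution by quantiles and combines the probes of a set, and low signals are compressed. Which RMA package or filters served is not given in the sources used here. Of 22206 transcript probe sets, 19572 had 1 gene symbol in the platform annotation and 0 several; the brightest probe set per symbol gave 19505 genes. No coordinates of the array's probes are given, as their build is not stated.

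Groups were compared by moderated linear models (limma 3.58.1, R 4.3.3; no covariates, two-sided tests, Benjamini-Hochberg adjusted across the 19505 genes). Differences are knockdown minus control; the median SE was 0.096, and the number of arrays limits the precision. The fit was tested on simulated data of the knockdown against control comparison, with 19505 genes: of 67 genes given a log2 change of 0.5 it found 28, of 67 given 1 it found 60, and of 66 given 2 it found 66. The members and lists were chosen with earlier results of these data known. The text names the 9 regulators and Rras2, and called members of the 6 lists (any of them) or up to 4 with the largest differences. For each regulator past the threshold it also names the 5 genes with the highest r. Only for these last were genes with both means below background and unnamed clones left out. A gene at background in 1 group gets a bound, its brighter mean against the controls with each array raised to its negative-control percentile, in place of a fold. For Myog the value is no bound, since knockdown replicate 5 also lay at background. Other list members, such as the ID and HDAC genes or Mymx, are named for their role, outside that rule and after their values were seen. Hey1, Bhlhe41, Mdfic, Tagln and Cnn1 are named, likewise outside it, for their unadjusted p. Alternatives were 3 normalizations, 2 filters on dim genes, the mean of probe sets, every transcript probe set, trend and robust settings, array weights, an unequal-variance test, treat with a minimum fold of 1.2, and leaving out each array.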

Additional observations from a re-analysis of the deposited data

How the results depend on the processing

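Mef2c passed in limma in all 6 fits that left out an array, with a largest adjusted p of 0.00211, and in 10 of the 11 other settings, and Myog in 5 of the 6 and 9 of the 11. The exceptions were the unequal-variance test per gene (adjusted p = 0.158 and 0.28) and, for Myog, treat with a minimum fold of 1.2 (adjusted p = 0.0674). The unequal-variance test called 0 of the 9 regulators, 0 of the 28 target genes and 0 of all genes in either direction, with 2697 genes at an unadjusted p under 0.05 and a smallest adjusted p of 0.145. Treat called 1 regulator higher, and 142 genes higher and 40 lower in all. With trend and robust settings 965 genes were higher and 943 lower, and without genes below the negative-control percentile 887 were lower; Myod1 passed with the former (adjusted p = 0.0194). Median centring called 1 regulator lower, Myf6, and turned the log2 differences of Pax7 to -0.026 and of Mef2d to -0.036. Without 1 array, 1 to 3 regulators were higher (3 without knockdown replicate 5, with Myod1) and 0 to 1 lower, 16 to 22 target genes were higher, and 280 to 684 genes were higher and 112 to 452 lower in all. In these fits the difference of Myf5 ran from -0.019 to 0.211, that of Pax7 from -0.032 to 0.040 and that of Mef2d from -0.075 to 0.049. The cause of these shifts was not tested. No paired analysis was possible because the replicate numbers of the groups do not overlap. Signals of Myod1, Myf5 and Myf6 at background limit what can be said of them.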
